A study of Mus musculus with 6 samples.

Results

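Cystatin F, the protease inhibitor encoded by Cst7, was followed together with 2 other cystatins (Cst3, Cstb), 6 cathepsins (Ctsb, Ctsc, Ctsd, Ctsl, Ctss, Ctsz) and legumain (Lgmn) in mouse optic nerves after optic nerve crush (ON-CR). These 10 genes were picked by symbol from the 25755 genes of the expression table, at a time when their ON-CR against sham values were already known. Their differences between the groups are therefore given as a description, without a test. RNA of whole optic nerves was sequenced in bulk from 3 sham-operated mice (mice 1 to 3) and 3 ON-CR mice (mice 4 to 6). All 6 mice carried the NF1flox/flox;hGFAP-Cre genotype, in which Cre recombinase under the human GFAP promoter removes Nf1 from neuroglial progenitors and the cells derived from them. The groups thus differed by surgery at 6 weeks of age and shared the Nf1 deletion, and no mouse with intact Nf1 was among the libraries. The nerves were taken at 12 weeks, which the labels give as 3 months. Mice were perfused before the nerves were removed, and the labels treat each library as 1 mouse. The authors' methods for RNA extraction and PCR give 2 mice per sample, and those for sequencing do not state a number. A library may thus hold more than 1 animal. With bulk RNA, fewer cells of a type and less RNA per cell cannot be told apart.

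The libraries held between 17414091 and 23621086 estimated reads, and the 3 ON-CR libraries were the shallowest. Nf1 was read at 364, 447 and 343 in sham nerves versus 416, 438 and 380 after ON-CR, with overlapping groups, as whole tissue that includes cells outside the Cre lineage. Gfap, an astrocyte filament gene, and Mbp, a myelin gene, were abundant in every library, from 99186 to 202957 for Gfap and from 369255 to 1296440 for Mbp. The libraries differed in sex-linked RNA. The female transcript Xist was at 2.14 to 30.9 in sham nerves and at 2708 to 6357 in ON-CR mice. The Y-linked Ddx3y was at 1291 to 1645 in sham nerves versus 976, 4.19 and 0 in mice 4, 5 and 6. The library of mouse 4 thus held both, and whether it came from more than 1 animal was not tested. Sex and surgery therefore cannot be told apart in any difference reported here. All values are normalized counts, that is, the deposited signal per gene on a linear scale, unless a log2 difference (ON-CR minus sham) is named.

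Cathepsins are proteases of the endosome and lysosome. Most of them are cysteine proteases that are held in check by cystatins, whereas cathepsin D is an aspartic protease that cystatins do not bind. Legumain is an asparagine-specific cysteine protease that cuts cathepsins into their mature chains. Cystatin C and cystatin B are made by many cell types, while cystatin F is made mainly by immune cells, is sorted to endosomes and lysosomes, and blocks cathepsin C once it has itself been cleaved. In the central nervous system, microglia and macrophages are rich in lysosomal proteases, and Cst7 is known as a gene that microglia turn on in demyelinating and degenerating tissue.

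The regulatory sequence next to the start sites of Cst7 and Ctsd is printed because, among the 10 genes, these are the inhibitor and the protease with the largest differences between the groups. RefSeq promoters of GRCm38.p6 were found for 8 of the 10 genes, with 2 start sites for Lgmn and so 9 promoters, and none was found for Cstb and Ctsb. Both stretches hold the 250 bases before the start site and run 5′ to 3′ on the strand of the gene. Capitals mark GGAAGT, the core that factors of the ETS family such as PU.1 bind, in Cst7 (chr2:150570165-150570414, plus strand) and CACGTG, the E-box read by TFEB and its relatives, in Ctsd (chr7:142387828-142388077, minus strand).
Cst7: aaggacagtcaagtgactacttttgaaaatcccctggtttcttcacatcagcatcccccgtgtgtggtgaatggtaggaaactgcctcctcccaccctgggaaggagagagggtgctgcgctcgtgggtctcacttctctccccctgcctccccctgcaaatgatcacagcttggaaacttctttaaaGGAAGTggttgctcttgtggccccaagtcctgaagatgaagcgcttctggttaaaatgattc
Ctsd: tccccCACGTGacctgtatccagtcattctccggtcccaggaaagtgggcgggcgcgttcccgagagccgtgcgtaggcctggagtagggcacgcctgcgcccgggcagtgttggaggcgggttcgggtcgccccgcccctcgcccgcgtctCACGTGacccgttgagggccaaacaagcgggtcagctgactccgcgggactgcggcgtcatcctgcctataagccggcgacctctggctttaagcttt

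The stretch of Cst7 held 51.6% G and C with 4 CpG sites, and that of Ctsd held 67.2% with 27 CpG sites. GGAAGT stood 62 bases before the RefSeq start of Cst7, and the 2 copies of CACGTG stood 245 and 98 bases before that of Ctsd. The GENCODE spans given here for Ctsd, Ctsl and Lgmn begin further upstream than these RefSeq starts. The copy of CACGTG nearer the start of Ctsd and the copies in Ctsl and Lgmn thus lie inside the GENCODE spans. Each string of letters was searched on both strands from 250 bases before to 50 after each start. CACGTG was present in 3 of the 9 promoters, those of Ctsd, Ctsl and Lgmn, and in 7.15% of all 32851 promoters. GGAAGT was present in Cst7, Ctsc and Ctss and in 23.8% of all promoters. The longer form GAGGAAGT, which contains GGAAGT, was found in Ctsc and Ctss and in 3.2% of all. The matches in the other genes are shown with their flanks, with the match in capitals and ACTTCC as the reverse complement of GGAAGT. They lie at chr7:88277922-88277951 (Ctsc, plus strand), chr3:95526772-95526801 (Ctss, plus strand), chr13:64370739-64370768 (Ctsl, minus strand) and chr12:102439124-102439153 (Lgmn, minus strand).
Ctsc: tgtcactaactaACTTCCtcaggccacctc
Ctss: aaatgaaagttcACTTCCtcattgtggatg
Ctsl: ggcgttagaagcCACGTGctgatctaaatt
Lgmn: tggaatgtctgtCACGTGgtccattttata

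A match to such letters is a description of the sequence, and no binding was measured.

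All 10 genes had a higher mean after ON-CR, except that Cst3 was at -0.014 with trimmed-mean scaling, and their log2 differences ranged from 0.01 for Cst3 to 4.97 for Cst7. In 6 of the 10 (Cst7, Ctsb, Ctsc, Ctsd, Ctsl and Ctsz) the groups did not overlap, and the same held for 10.5% of all genes in this direction and 11.0% in the other. By limma with Benjamini-Hochberg adjustment over all genes, 4 of the 10 (Cst7, Ctsb, Ctsd and Ctsz) passed, all higher, where 2.1% of all genes passed, 0.971% in this direction and 1.13% in the other. Since the genes were chosen with this contrast known, nothing is read from these counts. The median log2 difference was 0.60 over the 10 genes and 0.03 over all genes. Among the ON-CR mice, mouse 6 was the highest for 9 of the 10 genes and mouse 5 the lowest for 9. Among the sham mice, mouse 1 was the highest for 9.

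**Figure D1:**
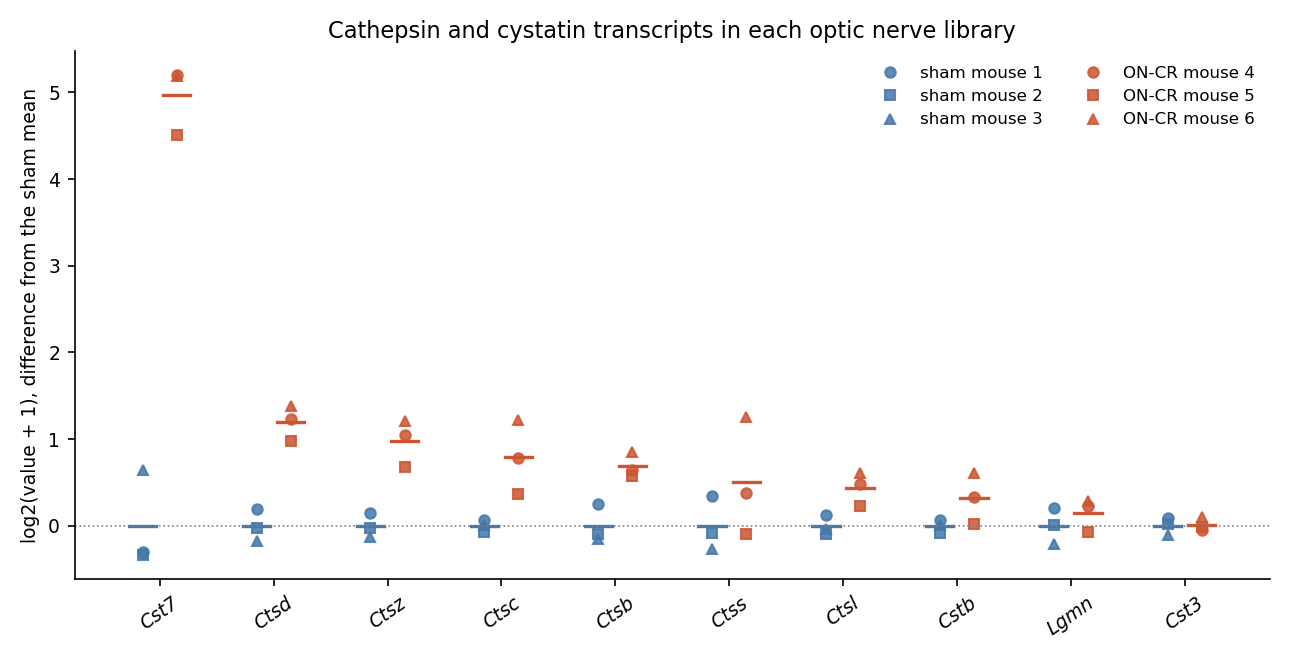
The y axis gives log2(normalized count + 1) as a difference from the sham mean of the same gene, with 1 point per mouse, sham mice 1 to 3 in blue, ON-CR mice 4 to 6 in red and a line at each group mean. The ON-CR mean of Cst7 lies at 4.97 and that of Ctsd at 1.20, while Cst3, Cstb, Ctss and Lgmn overlap between the groups.

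Cst7 (chr2:150570415-150578944, plus strand) showed the largest difference. Its normalized count was 12.7, 12.4 and 25.4 in mice 1, 2 and 3 (sham). Mice 4, 5 and 6 (ON-CR) had 622, 385 and 618. All ON-CR values lay far above all sham values, and mouse 5 was the lowest of its group. The sham values rested on 12, 14 and 27 estimated reads, all above the 3 reads taken as the floor of detection, and the ON-CR values on 624, 367 and 595. The mean went from 16.8 ± 7.39 (SD, n = 3) to 542 ± 136 (SD, n = 3), which is 32.2-fold, with a log2 difference of 4.97 ± 0.32 (SE). Ordered by log2 difference, Cst7 was gene 5 of 25755. Leaving out each mouse in turn gave log2 differences from 4.80 to 5.29. The genes on either side of Cst7 on chromosome 2 did not share its difference. Gm14121, on the side of lower coordinates, had means of 12.8 ± 1.39 and 10.2 ± 0.868 (SD, n = 3 each, limma with Benjamini-Hochberg adjustment, adjusted p = 0.803), and Apmap, on the other side, had means of 627 ± 72.7 and 632 ± 14.1 (SD, n = 3 each, limma with Benjamini-Hochberg adjustment, adjusted p = 0.966).

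Cst3 (chr2:148871722-148875692, minus strand) encodes cystatin C, the main secreted cystatin of brain and cerebrospinal fluid. It was read at 76034, 72189 and 66056 in sham nerves versus 68805, 70952 and 76332 after ON-CR. The groups lay within the same range, and the log2 difference was 0.01 ± 0.13 (SE). Cystatin B, encoded by Cstb (chr10:78425669-78427622, plus strand), acts in the cytosol and nucleus. Its values of 1135, 1025 and 1086 in sham nerves versus 1361, 1098 and 1656 after ON-CR overlapped through mouse 5. The log2 difference of Cstb was 0.32 ± 0.15 (SE), which became 0.18 without mouse 6 and 0.47 without mouse 5. Among the cystatins of the 10 genes, the separation between the groups was thus limited to Cst7.

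Ctsd (chr7:142375911-142388038, minus strand) encodes cathepsin D, the aspartic protease, and was the cathepsin with the largest difference. It was read at 21886, 18759 and 16912 in sham nerves versus 44914, 37730 and 49872 after ON-CR. The lowest ON-CR mouse was well above the highest sham mouse. Its mean went from 19186 ± 2515 to 44172 ± 6105 (SD, n = 3 each), a 2.30-fold difference with a log2 difference of 1.20 ± 0.15 (SE). Ctsz (chr2:174427493-174439039, minus strand) encodes cathepsin Z, a carboxypeptidase that trims single residues from the end of proteins. Sham mice had 4387, 3907 and 3622 and ON-CR mice had 8198, 6364 and 9188. The groups were again apart, 1.99-fold by their means, and the log2 difference of Ctsz was 0.98 ± 0.15 (SE).

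Ctsb (chr14:63122462-63145923, plus strand) encodes cathepsin B, which works both as an endopeptidase and as a carboxypeptidase. It was read at 20822, 16374 and 15794 in sham nerves versus 27379, 26017 and 31700 after ON-CR, without overlap, with a log2 difference of 0.69 ± 0.14 (SE). Ctsl (chr13:64359337-64370890, minus strand) encodes cathepsin L, a broad endopeptidase. Its values were 3640, 3130 and 3255 in sham nerves versus 4656, 3907 and 5087 after ON-CR. The gap was narrow, since mouse 5 stood only slightly above sham mouse 1, and the log2 difference was 0.44 ± 0.13 (SE). Ctsc (chr7:88278085-88310888, plus strand) encodes cathepsin C, which activates many serine proteases of immune granules and is the best known target of cystatin F. Ctsc was read at 861, 782 and 827 in sham nerves versus 1414, 1061 and 1919 after ON-CR. The sham mice lay close together and the ON-CR mice were spread, with mouse 6 the highest. The log2 difference of Ctsc was 0.79 ± 0.19 (SE), and it was 0.57 without mouse 6 and 1.00 without mouse 5.

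Ctss (chr3:95526786-95556403, plus strand) encodes cathepsin S, which antigen-presenting cells use to cut the invariant chain of MHC class II and which stays active at neutral pH. It was read at 6537, 4839 and 4262 in sham nerves versus 6646, 4805 and 12227 after ON-CR. Mice 4 and 5 lay at about the sham values and mouse 6 stood apart. The log2 difference of 0.51 ± 0.29 (SE) had the second widest error of the 10 genes after Cst7, and it was 0.14 without mouse 6 and 0.81 without mouse 5. Lgmn (chr12:102394084-102439813, minus strand), the legumain gene, was at 7002, 6136 and 5251 in sham nerves versus 7144, 5775 and 7457 after ON-CR. These groups overlapped, with a log2 difference of 0.15 ± 0.14 (SE).

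Some of these genes share exon sequence with another gene, and whether the authors counted reads by strand is not given in the sources used here. Fdft1, on the other strand, covers 12.8% of the exon bases of Ctsb. Fdft1 fell from 3002 ± 408 to 1539 ± 62.4 (SD, n = 3 each, limma with Benjamini-Hochberg adjustment, adjusted p = 0.00485), opposite in direction to Ctsb. Gm49369, on the same strand, covers 34.4% of the exon bases of Ctsd and was not analysed here. Gm47123, on the other strand of Ctsl, was at 32.1 or less in every library. Nelfcd overlaps Ctsz by 10 bases. Reads from such shared stretches cannot be told apart.

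Levels of different genes were compared as normalized count per kilobase of merged exons. On this scale Cst3 was the most abundant of the 10 genes in sham nerves, at 56419 ± 3975 (SD, n = 3), and ranked 24 of 25072 genes with a length. Ctsd followed at 8161 ± 1070. Then came Ctss at 3839 ± 871, Ctsb at 2919 ± 455, Ctsz at 2756 ± 268 and Lgmn at 2639 ± 377, and each of these overlapped with its neighbour in the order. Cstb at 1795 ± 91.5, Ctsl at 515 ± 41.0, Ctsc at 142 ± 6.81 and Cst7 at 17.1 ± 7.49 were each separated from the gene before and after. Among these middle 4 proteases, all 3 sham values of Ctss lay above those of Ctsz and Lgmn but not above those of Ctsb, and Ctsb, Ctsz and Lgmn could not be ordered.

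After ON-CR the levels per kilobase were 56895 ± 3063 for Cst3 and 18789 ± 2597 for Ctsd (SD, n = 3 each). Next stood Ctss at 5812 ± 2846, Ctsz at 5494 ± 994 and Ctsb at 4688 ± 490, of which neighbours overlapped. Lgmn at 2924 ± 385 and Cstb at 2275 ± 463 overlapped with each other, as did Ctsl at 701 ± 92.0 and Cst7 at 549 ± 138. Ctsc was last at 252 ± 74.2. Cst7 had thus moved from the last place to the place above Ctsc, and from rank 14665 to rank 1571 among 25072 genes by mean level per kilobase. Ctsd went from rank 98 to rank 49.

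**Figure D2:**
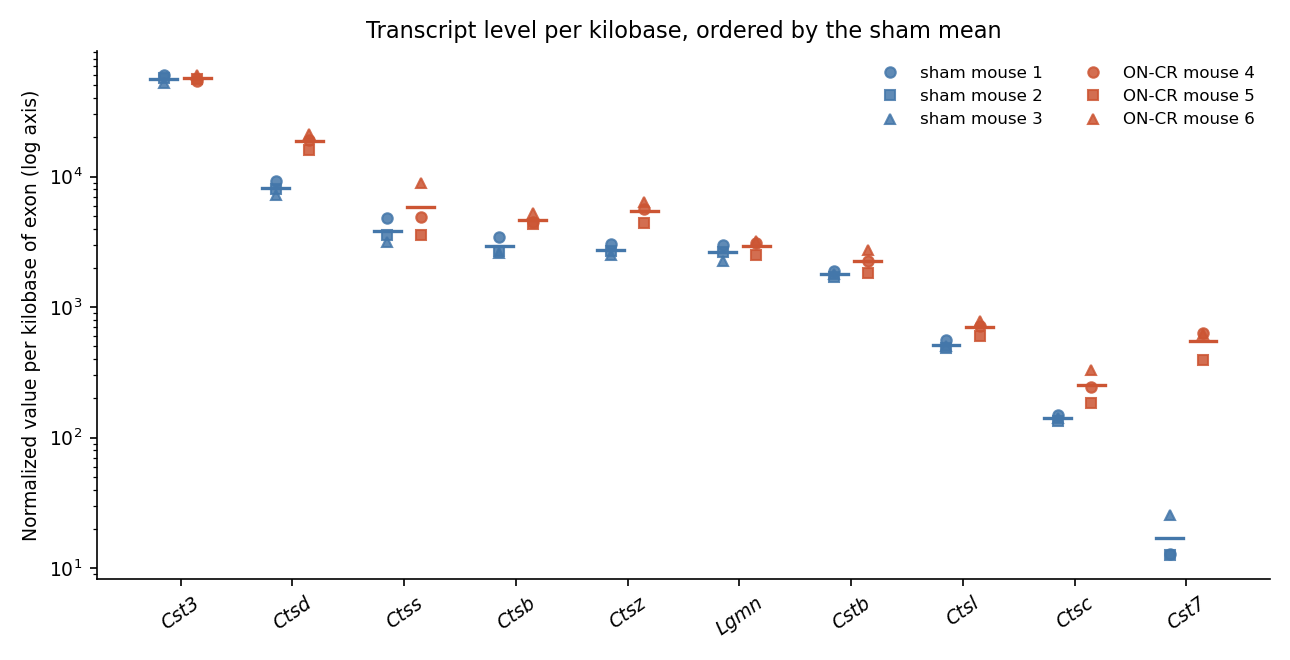
Normalized count per kilobase of merged exons, on a log axis, for the 10 genes in order of their sham mean, with 1 point per mouse (sham blue, ON-CR red) and a line at each group mean. Cst3 lies at the top in both groups, and Cst7 goes from the lowest of the 10 genes in sham nerves, at 17.1, to 549 in ON-CR nerves, above Ctsc at 252.

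Cystatin F was set against its target by dividing the level of Cst7 per kilobase by that of Ctsc in the same mouse. The ratio was 8.72%, 9.34% and 18.1% in mice 1, 2 and 3 (sham). It was 259%, 214% and 190% in mice 4, 5 and 6 (ON-CR). Per kilobase of merged exons, Cst7 RNA was below Ctsc RNA in every sham nerve and above it in every ON-CR nerve. Without division by length, Cst7 stayed below Ctsc in every mouse, with log2 ratios of -1.18, -1.46 and -1.63 in mice 4, 5 and 6. The order of the 2 genes after ON-CR therefore depends on the lengths used. With the length of the longest transcript in place of merged exons, the ratios were 4.83%, 5.18% and 10.0% in sham nerves and 144%, 118% and 105% in ON-CR mice. The ranges of the levels of both genes then overlapped over the ON-CR mice, although within each mouse Cst7 remained the higher. On the log2 scale the ratio differed by 4.18 between the groups.

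The 7 proteases together were at 24332, 20219 and 18360 per kilobase in sham nerves versus 38248, 31574 and 46157 after ON-CR, and the groups did not overlap. Cathepsin D RNA made up 39.0% ± 0.629 of this sum in sham nerves and 48.9% ± 2.59 after ON-CR (SD, n = 3 each), with 46.0% as the lowest ON-CR share and 39.5% as the highest sham share. Legumain took 12.6% ± 0.415 in sham nerves and 7.62% ± 0.585 in ON-CR mice, again without overlap. The share of Ctsl was 2.47% ± 0.227 and 1.83% ± 0.113. Shares of Ctsz were 13.2% ± 0.616 and 14.2% ± 0.568, those of Ctsb 13.9% ± 0.461 and 12.3% ± 1.2, and those of Ctsc 0.684% ± 0.0849 and 0.644% ± 0.0689. Ctss took 18.2% ± 1.42 under sham surgery, and it took, in mice 4, 5 and 6, 12.8%, 11.2% and 19.5%. The mixture of protease transcripts was therefore richer in cathepsin D and poorer in legumain after ON-CR. The ratio of Ctsd to Lgmn varied little among mice, with log2 values of 1.64, 1.61 and 1.69 in sham nerves versus 2.65, 2.71 and 2.74 after ON-CR. Since the ratio compares genes within 1 library, the scaling of libraries does not enter it.

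**Figure D3:**
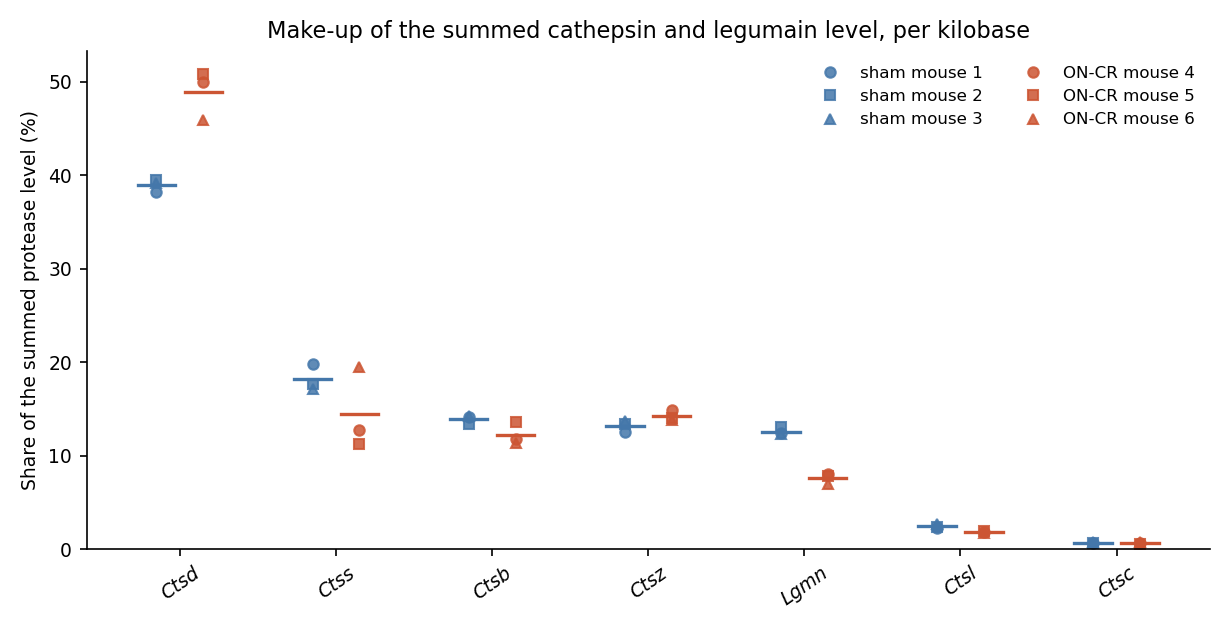
Share of each of the 7 proteases in their summed level per kilobase, in percent on the y axis, with 1 point per mouse (sham blue, ON-CR red) and a line at each group mean. The share of Ctsd is 39.0% on average in sham nerves and 48.9% after ON-CR, and that of Lgmn is 12.6% and 7.62%.

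Within the 3 cystatins, Cst3 made up 96.9% ± 0.238 of the summed level per kilobase in sham nerves and 95.3% ± 0.805 after ON-CR (SD, n = 3 each). Cst7 accounted for 0.03% ± 0.0153 and 0.919% ± 0.224. By transcript level, cystatin F remained a small part of the cystatin RNA of the whole nerve in both groups.

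Pan-myeloid markers and markers of activated microglia had calls in this comparison, and homeostatic microglia markers had 0. Of 10 pan-myeloid markers (Aif1, Csf1r, Itgam, Ptprc, Tyrobp, Fcer1g, C1qa, C1qb, C1qc and Ly86), 7 rose and 0 fell, with a median log2 difference of 1.21, and their summed level was 14341 to 17480 in sham nerves and 21649 to 37403 in ON-CR mice. The count of 7 became 0 without sham mouse 2 or ON-CR mouse 6, 2 without sham mouse 1 or sham mouse 3, 3 without mouse 4 and 9 without mouse 5, while the median stayed between 1.00 and 1.43. Of 10 homeostatic microglia markers, 0 rose and 0 fell by limma with Benjamini-Hochberg adjustment (2 had an unadjusted p under 0.05). Their directions were mixed, and 6 of the 10 had a log2 difference above 0. The differences ran from -0.35 for P2ry12 to 0.72 for Cx3cr1. The summed level of these markers, 9909 to 13915 in sham mice, overlapped with 10165 to 14743 in ON-CR mice. Of 13 markers of activated microglia, 8 rose and 0 fell, and 4 rose without mouse 6 and 6 to 8 without each of the other mice. In the pan-myeloid and homeostatic lists no marker was at 0 in every library. Each of the 10 genes was then expressed relative to the mean log2 level of a marker list in the same mouse.

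Relative to the pan-myeloid markers, Cst7 was still higher in ON-CR mice, by 3.93 on the log2 scale, without overlap between the groups. Ctsd, Ctsz, Ctsb and Ctss overlapped between the groups on this scale, with differences of 0.16, -0.057, -0.35 and -0.53. The values of Ctsc, Ctsl, Cstb, Lgmn and Cst3 were lower in every ON-CR mouse than in every sham mouse, with differences of -0.25, -0.60, -0.72, -0.89 and -1.03. Of the 10 genes, Cst7 alone stood higher against this list in every ON-CR mouse than in every sham mouse. Relative to the homeostatic markers, whose mean log2 level differed by 0.20 with overlap, the differences were 4.77 for Cst7, 1.01 for Ctsd, 0.79 for Ctsz, 0.59 for Ctsc and 0.49 for Ctsb, none with overlap. Ctss, Ctsl, Cstb, Lgmn and Cst3 overlapped on that scale, with differences of 0.32, 0.24, 0.13, -0.05 and -0.18. Relative to the markers of activated microglia, Cst7 was higher by 3.63, and the other 9 genes were lower after ON-CR. Their differences ran from -0.14 for Ctsd, which overlapped between the groups as did Ctss, to -1.33 for Cst3. The part that the number of myeloid cells has in the differences of the 10 genes was not tested.

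**Figure D4:**
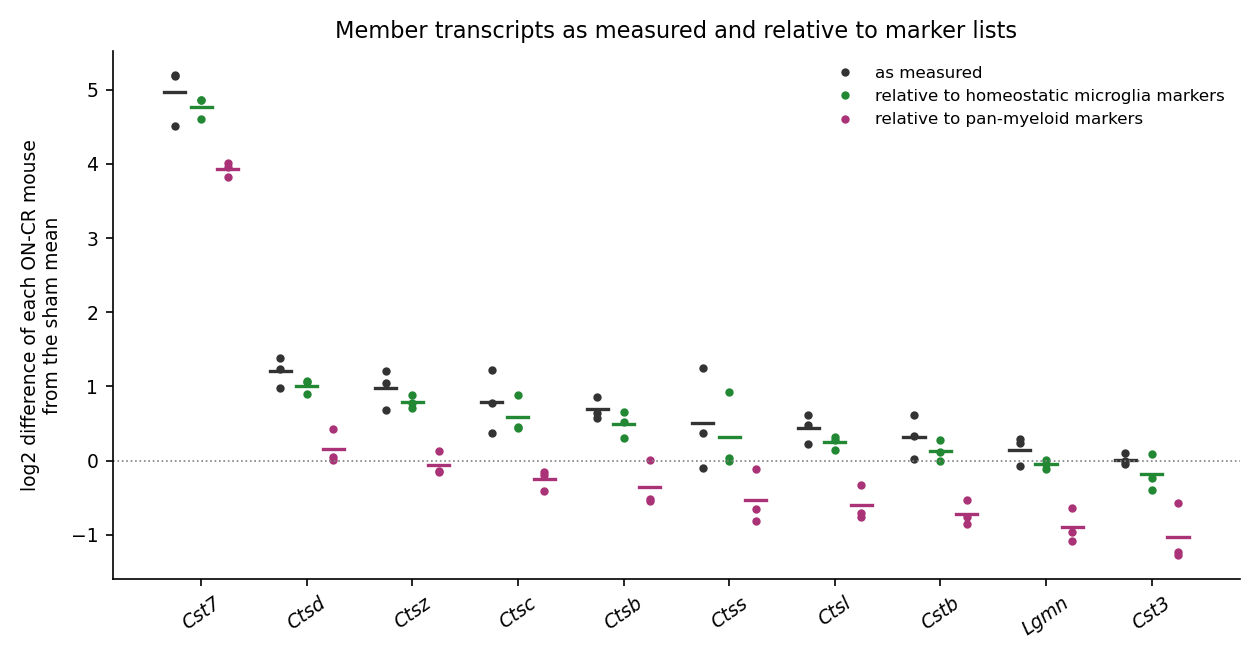
Log2 difference of each ON-CR mouse from the sham mean for each of the 10 genes, as measured (black), relative to the homeostatic microglia markers (green) and relative to the pan-myeloid markers (purple), with 1 point per mouse and a line at the mean. Cst7 stays at 4.77 and 3.93 on the relative scales, whereas Ctsd goes from 1.20 as measured to 0.16 relative to the pan-myeloid markers.

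Markers of other cells give the rest of the composition. Oligodendrocyte markers fell in 7 of 9 cases, with a median log2 difference of -0.87, and this count of 7 became 0 without sham mouse 2 or ON-CR mouse 6, 3 without sham mouse 1 and 6 without each of the others. Markers of astrocytes, border macrophages, neutrophils, T cells, B cells, cytotoxic lymphocytes, neurons, fibroblasts, endothelium and epithelium passed in 0 cases by limma, although 5 of 8 astrocyte, 4 of 6 fibroblast and 2 of 8 border macrophage markers had an unadjusted p under 0.05 and 0 of the other lists did, and among 6 monocyte markers S100a4 alone rose, a call that was lost without mouse 6 (limma with Benjamini-Hochberg adjustment, adjusted p = 0.0683). Cystatin F is also made by cytotoxic lymphocytes. Their 9 markers summed to 100.05 to 388 in sham nerves and 77.6 to 618 in ON-CR mice. Mouse 5 was the lowest of the ON-CR mice for this sum and for 9 of the 10 genes, Cst7 among them. The sum was 388 in sham mouse 3 and 334 in ON-CR mouse 4, where Cst7 was at 25.4 and 622. The part of cytotoxic lymphocytes in the Cst7 values was not tested. B cell markers summed to 14347 in mouse 6 and to 503 or less in the other mice. Neuron markers summed to 5309 in mouse 5 and to 2302 or less elsewhere.

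Cathepsin S and the genes of antigen presentation were high in the same mouse. Of 6 MHC class II genes, 0 passed by limma with Benjamini-Hochberg adjustment and 0 had an unadjusted p under 0.05, with a median log2 difference of 0.16. Cd74, the invariant chain that cathepsin S cuts, was at 21941, 22548 and 33103 in sham nerves versus 23797, 9626 and 81769 after ON-CR. Mouse 6 was the highest and mouse 5 the lowest of the ON-CR mice for Cd74 as for Ctss. This order was not particular to Ctss, since mouse 6 was the highest for 9 of the 10 genes and mouse 5 the lowest for 9. Among the sham mice, Ctss was highest in mouse 1 and Cd74 in mouse 3. H2-Aa and H2-Ab1, the next most abundant class II genes, were at 15267 and 13789 in mouse 6 and at 6167 or less in the other mice. The part of B cells in the Ctss value of mouse 6 was not tested.

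Granule serine proteases, some of which cathepsin C activates, were scarce. Of 8 granule proteases in the table, 0 passed by limma, 1 had an unadjusted p under 0.05, and the median log2 difference was -0.05. The most abundant were the mast cell proteases Tpsb2, at 111 ± 25.3 in sham and 95.9 ± 27.7 in ON-CR mice, and Tpsab1, at 63.9 ± 35.8 and 45.3 ± 19.4 (SD, n = 3 each). Cma1, a mast cell chymase, came next at 70.0, 69.1 and 20.7 under sham surgery and 21.9, 12.6 and 36.3 after ON-CR. Gzmk, a granzyme of T cells, was at 42.6 in mouse 6 and at 16.9 or less elsewhere, and was singled out after its values were seen.

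Other members of the cathepsin family did not move as a group. Of 8 other cathepsins and relatives in the table, 1 rose and 0 fell, with a median log2 difference of 0.11, and 3 had an unadjusted p under 0.05. The one that rose was Ctse, the aspartic cathepsin E of immune cells, at 164, 94.7 and 57.3 in sham nerves versus 737, 290 and 724 after ON-CR. Its log2 difference was 2.47 ± 0.42 (SE, limma with Benjamini-Hochberg adjustment, adjusted p = 0.0171). Without sham mouse 2, sham mouse 3 or ON-CR mouse 6 the adjusted p of Ctse by limma was 0.0979, 0.0704 or 0.161, and over all alternatives it ran from 0.00167 to 0.161. Ctsd and Ctse, both aspartic cathepsins, were thus higher in every ON-CR mouse than in every sham mouse. The same held for the cysteine cathepsins Ctsb, Ctsc, Ctsl and Ctsz and for 10.5% of all genes. The most abundant of the 8 other cathepsins and relatives were Ctsa, Ctsh and Ctsf. Ctsa, a carboxypeptidase that shields lysosomal enzymes, was at 5494 ± 310 and 6530 ± 710 (SD, n = 3 each), and Ctsh, an aminopeptidase, was at 1560 ± 471 and 2246 ± 671, both with overlap. Ctsf had a log2 difference of -0.44 and did not pass (limma with Benjamini-Hochberg adjustment, adjusted p = 0.101). Ctsf, Ctsk and Tinagl1 were lower in every ON-CR mouse than in every sham mouse, as were 11.0% of all genes. The log2 differences of Ctsk and Tinagl1 were -0.76 and -0.49, and neither passed (limma with Benjamini-Hochberg adjustment, adjusted p = 0.0743 and 0.346). Of 7 other cystatins in the table, 0 passed by limma and 1 had an unadjusted p under 0.05, at low levels throughout, and the one with the highest normalized count, Cst6, was at 37.0 ± 6.98 and 59.4 ± 11.9 (SD, n = 3 each).

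Lysosomal genes beyond the proteases changed in both directions. Of 34 other hydrolases and their activators, 2 rose and 1 fell, with a median log2 difference of 0.06. The sulfatase Galns rose by 0.98 (limma with Benjamini-Hochberg adjustment, adjusted p = 0.0188), and Naglu, an enzyme of heparan sulfate breakdown, fell by 0.76 (limma with Benjamini-Hochberg adjustment, adjusted p = 0.0418). The abundant Psap and Gm2a, which encode activators of lipid breakdown, did not pass, with log2 differences of 0.20 and -0.14. The calls of Galns and Naglu were lost without sham mouse 1, 2 or 3 or ON-CR mouse 6, with adjusted p from 0.0634 to 0.222 by limma. By limma, the adjusted p was also 0.0614 for Galns without mouse 4 and 0.0589 for Naglu without mouse 5.

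Of 28 genes of the lysosomal membrane and proton pump, 4 rose and 2 fell, with a median log2 difference of -0.0016. Cd68, a membrane glycoprotein of macrophage lysosomes, was at 794, 622 and 617 in the sham group against 2650, 1822 and 2654 after ON-CR, a log2 difference of 1.80 (limma with Benjamini-Hochberg adjustment, adjusted p = 0.00128) that passed under all 13 alternatives. Laptm5 and Cd63 rose by 0.88 and 0.59 (limma with Benjamini-Hochberg adjustment, adjusted p = 0.0401 and 0.0403). Atp6v0d2, a pump subunit of macrophages and osteoclasts, was at 0, 0 and 0.939 in sham mice, which is at most 1 read, and at 32.9, 24.1 and 19.7 after ON-CR (limma with Benjamini-Hochberg adjustment, adjusted p = 0.00604). The other pump subunits did not pass. Mcoln1, the lysosomal calcium channel, and Tmem192 fell by 1.12 and 1.21 (limma with Benjamini-Hochberg adjustment, adjusted p = 0.0190 and 0.0159). The adjusted p without ON-CR mouse 6 by limma was 0.0518 for Atp6v0d2, 0.142 for Mcoln1, 0.103 for Tmem192, 0.206 for Cd63 and 0.234 for Laptm5. Without sham mouse 1 and without sham mouse 2 it was 0.0618 and 0.0826 for Mcoln1 and 0.0699 and 0.111 for Tmem192. Cd63 and Laptm5 were lost in addition without sham mouse 1, 2 or 3 or mouse 4, with adjusted p from 0.0963 to 0.201 by limma, and with trimmed-mean scaling, at 0.0623 and 0.0545.

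Of 10 genes that sort enzymes to lysosomes, 0 passed by limma, 3 had an unadjusted p under 0.05, and 1 of the 10 had a higher mean after ON-CR, with a median log2 difference of -0.13. The mannose-6-phosphate receptor M6pr, which carries cathepsins from the Golgi, was at 3096 ± 222 in sham and 2543 ± 293 after ON-CR (SD, n = 3 each). Of 4 transcription factors of lysosomal and myeloid genes, Tfeb, whose product belongs to a family known to bind CACGTG, fell from 676 ± 123 to 345 ± 73.6 (SD, n = 3 each, limma with Benjamini-Hochberg adjustment, adjusted p = 0.0336). Its log2 difference was -0.97, and the adjusted p by limma was 0.142 without sham mouse 1, 0.192 without sham mouse 2 and 0.183 without ON-CR mouse 6. Tfe3 and Mitf, the relatives of Tfeb, had log2 differences of 0.16 and 0.01, and Spi1, which encodes PU.1, had -0.45 with overlap.

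**Figure D5:**
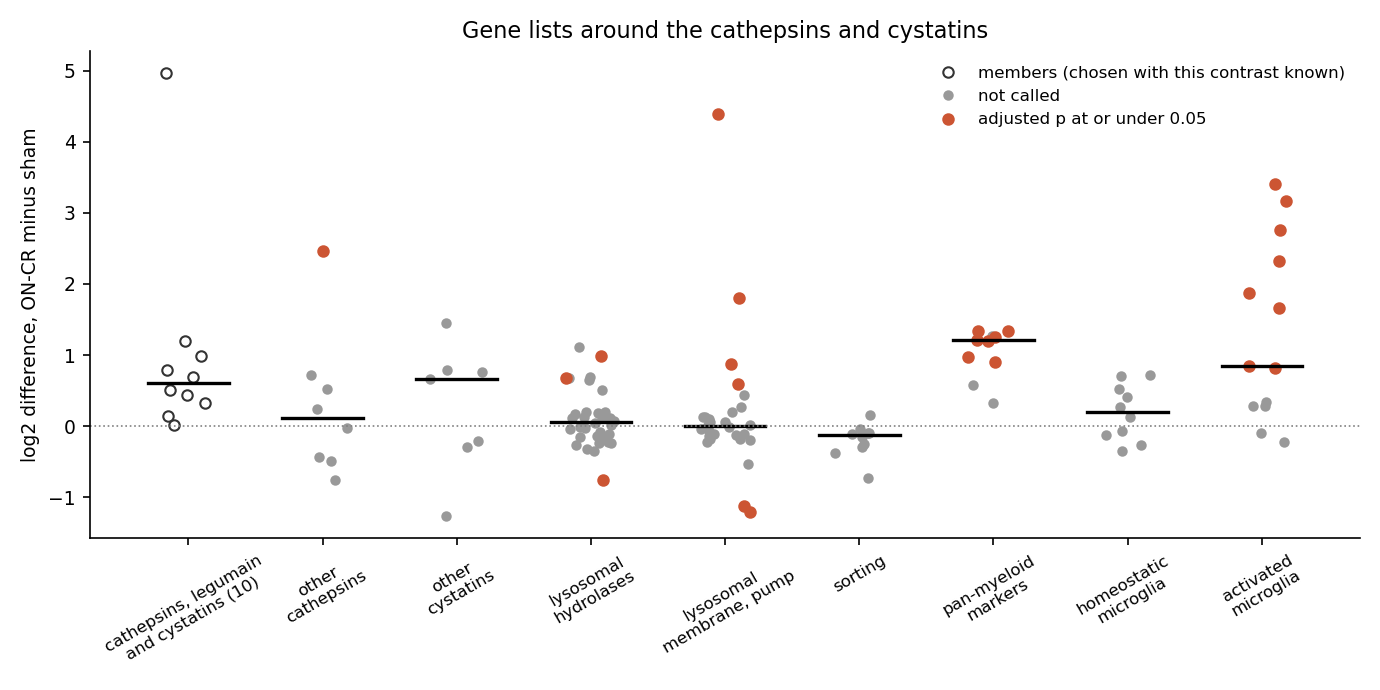
Log2 difference (ON-CR minus sham) of the genes of each list, 1 point per gene, with a line at the list's median, red points for an adjusted p of at most 0.05 by limma, grey points for other genes and open points for the 10 genes, which were chosen with this contrast known. The 10 genes have a median of 0.60, and the hydrolases, the membrane and pump genes and the sorting genes have medians of 0.06, -0.0016 and -0.13.

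The genes whose pattern over the 6 mice was most like that of Cst7 were found by the root mean square difference in log2 level, each gene taken relative to its own sham mean, among 14435 genes with a mean of at least 50. They were the chemokine genes Ccl4 and Ccl3 at 0.23 and 0.60, the transglutaminase gene Tgm1 at 0.70, Lcn2, which encodes an iron-carrier binding protein, at 1.12 and Clec7a, a receptor for fungal glucans, at 1.17. The mean was taken over all 6 libraries. Ccl4, Ccl3, Tgm1 and Lcn2, with sham means of 14.7, 11.2, 13.3 and 49.8, reached 50 only through the ON-CR mice. The measure follows mainly the size of the ON-CR difference, by which Cst7 stood out, so nothing is read from the likeness. Ccl4 was at 12.7, 11.5 and 19.7 in sham nerves versus 396, 324 and 575 after ON-CR, and as with Cst7 every ON-CR value lay far above every sham value. By quantitative PCR, the authors reported that Ccl4 did not change after ON-CR in mice of this genotype and age. The reason for the unlike results was not tested. Of the other 9 genes described here, Ctsd was the nearest to Cst7, at 2.70 and rank 186 of 14435, followed by Ctsz at 2.85 and rank 307.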

How the data were processed

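RNA from optic nerves of 3 sham and 3 ON-CR mice was sequenced by the authors after SMARTer Ultra Low library construction. The authors quantified the reads with DRAGEN, normalized gene counts by the median in Partek Flow (version 10.0 in the submitters' processing notes) and used mm10. The deposited values are a normalized signal per gene and not raw counts, so no count test was run. Division by the value of 1 read (0.885 to 1.06) left 64.6% to 67.7% of values within 0.01 of a whole read, and these estimated reads served only for depth and for the floor of 3 reads (2.66 to 3.18 normalized counts), which covers counting error only. The test was limma (version 3.58.1, R 4.3.3) on log2(value + 1), allowing the variance to follow the mean level, and p was adjusted by Benjamini-Hochberg across all 25755 genes, with 0.05 as the threshold. The log2 scale with a pseudocount of 1 understates differences of low genes. The fit was tested on simulated data. The p-values measure the spread between these libraries, each labelled as 1 mouse.

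The 10 genes and all lists were chosen with earlier results of these data known. Named were the 10 genes, genes of the related lists that passed or were among the 3 most abundant, neighbours of Cst7 and Cst3, and the 5 genes nearest to Cst7 in pattern. Some results for named genes are not reported here. Positions and exon lengths are from GENCODE vM21 (GRCm38). Alternatives were upper-quartile and trimmed-mean scaling, a mean value of at least 10, pseudocounts of 0.1 and 2, a robust fit, sample weights and leaving out each mouse. Values relative to markers and counts over marker lists without each mouse, and the single related genes, were added after the data were seen.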

Additional observations from a re-analysis of the deposited data

How the results depend on the processing

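No paired analysis was possible because mouse numbers are not shared between the groups. Scaling, the filter, pseudocounts and sample weights kept the direction of the 10 genes, except Cst3, which was at -0.014 with trimmed-mean scaling. Relative to pan-myeloid markers, Cst7 and Ctsd became 3.93 and 0.16, and the other 8 genes changed sign, Ctsb, Ctsz, Ctsc, Ctss, Ctsl, Cstb, Lgmn and Cst3 to -0.35, -0.057, -0.25, -0.53, -0.60, -0.72, -0.89 and -1.03. Relative to homeostatic microglia markers, Ctsb, Ctsl and Cst3 became 0.49, 0.24 and -0.18. With sample weights, 388 rather than 250 genes rose and 4 rather than 2 hydrolases rose. With trimmed-mean scaling, 2 rather than 4 membrane and pump genes rose. In the robust fit, 0 other cathepsins rose and 1 fell. Leaving out each mouse gave 39 to 489 genes that rose and 28 to 365 that fell. It gave 0 to 1 other cathepsins that rose, 0 to 3 hydrolases that rose and 0 to 1 that fell, and 1 to 4 membrane and pump genes that rose and 0 to 2 that fell. The fewest calls over all genes came without ON-CR mouse 6. The median log2 difference ran from 0.14 to 0.69 for other cystatins and from 0.014 to 0.17 for hydrolases. The cause was not tested, beyond the smaller number of mice. Among the 10 genes, the log2 difference ran from 4.80 to 5.29 for Cst7, 1.11 to 1.31 for Ctsd, 0.87 to 1.13 for Ctsz, 0.57 to 1.00 for Ctsc, 0.61 to 0.81 for Ctsb, 0.36 to 0.55 for Ctsl, 0.14 to 0.81 for Ctss, 0.18 to 0.47 for Cstb, 0.04 to 0.26 for Lgmn and -0.04 to 0.06 for Cst3.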

Other observations

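On the far side of Cst3 from Cst7, Napb, a gene of vesicle fusion, was at 288, 253 and 206 in sham mice and at 264, 850 and 395 in ON-CR mice, with the highest value in mouse 5 (limma with Benjamini-Hochberg adjustment, adjusted p = 0.272). The next gene on the other side, Gm14132, was at 7.51 or less in every library.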
